A study of Homo sapiens with 4 samples.

Results

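The 9 genes described here encode the machinery that displays peptides on the cell surface: the class I heavy chains HLA-B and HLA-C with their light chain B2M, the peptide transporter subunits TAP1 and TAP2 with the loading chaperone TAPBP, and, for class II, HLA-DRA, the invariant chain CD74 and the class II transactivator CIITA. They were chosen by function, and all 9 were found among the 57905 genes of the count tables. The filter on low counts kept 16416 genes, the 9 among them. Class I molecules hold peptides cut from proteins inside the cell. TAP1 and TAP2 pump these peptides into the endoplasmic reticulum, where TAPBP (tapasin) bridges the transporter and the empty class I molecule, and the finished complex is shown to cytotoxic T cells. Class II molecules hold peptides from the endocytic route, CD74 blocks their groove until they reach it, and CIITA switches class II genes on. Class II is normally a feature of dendritic cells, macrophages and B cells, but gliomas and other tumours can express it, and interferon-gamma is known to raise both branches.

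RNA was sequenced from U87MG, an established human glioblastoma line labelled wild type and used at passages 8-10. The 2 control samples were left untreated, and the 2 chaetocin samples received 50 nM chaetocin in DMSO for 24 h. Chaetocin is a fungal metabolite. According to the paper it blocks SUV39H1 and other histone methyltransferases without specificity, and thioredoxin reductase as well. The paper attributes the pro-apoptotic effects of chaetocin to reactive oxygen species and not to SUV39H1. The controls received no DMSO, so the chaetocin and its solvent cannot be told apart. The labels do not say whether the samples of a group came from separate cultures, and p-values then measure only the spread between these samples, which may be technical. Counts summed to 25918137 and 30351416 in control samples 1 and 2 and to 21241984 and 32590479 in chaetocin samples 1 and 2. Levels are given as CPM, normalised read counts scaled to a common library size with TMM factors, and 3 reads corresponded to between 0.0844 and 0.138 CPM. Because these are bulk samples, fewer cells making a transcript and less of it per cell cannot be told apart.

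Markers were examined to see which cells the libraries could hold. Of 22 leukocyte and antigen-presenting cell markers, 7 had no read in any sample, among them MS4A1 of B cells and CD3E of T cells, as did the microglial and monocyte genes AIF1 and TYROBP. The summed level of the 22 markers was 49.3 and 53.5 CPM in the controls and 62.3 and 46.2 CPM after chaetocin. ITGAX, an integrin subunit of myeloid cells, and CSF1R, the receptor for macrophage colony-stimulating factor, gave most of that sum. PTPRC, the pan-leukocyte phosphatase CD45, had 0 and 1 reads in the controls and 15 and 27 reads after chaetocin, and ITGAM, another myeloid integrin subunit, had 0 and 1 against 24 and 29 reads. Both were called higher by edgeR, but they passed the filter on low counts through the chaetocin samples alone, so no weight is put on these calls. Where every sample needed 10 counts, neither was tested and 0 markers of the list were called higher. Of the 6 other tested markers, 4 (CD14, CD2, CD83 and LAPTM5) had both chaetocin samples above both controls, where 26.8% of all genes tested did, and none of the 6 was called. The part of PTPRC and ITGAM in the levels below was not tested. The glioma line markers VIM and CD44 were abundant, with a lowest sample of 1148 CPM for VIM and 797 CPM for CD44. Some other markers of that list were low or absent. GFAP, the astrocyte filament protein, had 25 and 25 reads in the controls and 10 and 17 after chaetocin, OLIG2 had between 39 and 65 reads in each sample, S100B and SOX2 had 0 reads in both controls and 5 or fewer after chaetocin, and CDKN2A had no read in any sample.

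The promoters are shown first because most class I and class II genes carry known control elements just before their start, through which interferon-regulated factors and the NF-Y, RFX and CREB proteins act on them together. RefSeq promoter entries (GRCh38.p14) were matched for 7 of the 9 genes, and CIITA and HLA-DRA had none. Entries hold 250 bases before and 50 after the start. The 180 bases before the start are printed 5′ to 3′ on the strand of the gene for the 6 class I genes, with motif matches in capitals. The letters searched, on both strands, were GAAANNGAAA for the core of the interferon-stimulated response element, GGGATTCCC for the kappaB site of enhancer A, CCAAT for the NF-Y box, and TGACG for the CRE-like core of the X2 box and site alpha. A match on the opposite strand appears as its reverse complement, for example ATTGG for CCAAT.
HLA-B, chr6:31357180-31357359, minus strand: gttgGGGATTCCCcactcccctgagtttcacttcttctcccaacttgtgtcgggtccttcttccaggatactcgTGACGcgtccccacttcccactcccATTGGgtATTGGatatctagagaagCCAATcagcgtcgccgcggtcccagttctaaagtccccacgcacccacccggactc
HLA-C, chr6:31272093-31272272, minus strand: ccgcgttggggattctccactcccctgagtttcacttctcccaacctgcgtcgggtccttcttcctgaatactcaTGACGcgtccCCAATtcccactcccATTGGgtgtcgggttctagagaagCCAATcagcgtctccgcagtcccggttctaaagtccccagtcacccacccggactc
B2M, chr15:44711337-44711516, plus strand: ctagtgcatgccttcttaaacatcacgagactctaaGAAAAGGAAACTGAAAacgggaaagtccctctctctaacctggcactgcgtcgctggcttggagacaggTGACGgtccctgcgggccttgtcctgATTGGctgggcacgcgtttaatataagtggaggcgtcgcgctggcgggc
TAP1, chr6:32853705-32853884, minus strand: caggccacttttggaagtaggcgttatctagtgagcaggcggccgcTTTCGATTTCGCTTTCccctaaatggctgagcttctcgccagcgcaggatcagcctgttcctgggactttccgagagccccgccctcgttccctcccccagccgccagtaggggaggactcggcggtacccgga
TAP2, chr6:32838740-32838919, minus strand: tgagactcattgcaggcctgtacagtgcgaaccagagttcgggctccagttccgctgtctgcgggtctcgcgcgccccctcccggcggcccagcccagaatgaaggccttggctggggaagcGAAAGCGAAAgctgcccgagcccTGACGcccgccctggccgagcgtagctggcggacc
TAPBP, chr6:33314079-33314258, minus strand: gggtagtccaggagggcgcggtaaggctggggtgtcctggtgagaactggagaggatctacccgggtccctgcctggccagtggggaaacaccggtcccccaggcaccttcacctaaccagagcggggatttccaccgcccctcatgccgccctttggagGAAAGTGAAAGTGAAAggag

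The interferon-stimulated core was present in 4 of the 7 searched genes, B2M, TAP1, TAP2 and TAPBP, and in 3.57% of all 35116 promoter entries. The letters were searched without mismatches, so a gene with no match, such as HLA-B or HLA-C for this core, may still carry a variant of the element. In B2M, TAP1 and TAPBP the capitals cover 2 overlapping matches of that core. The kappaB letters were found in HLA-B alone among the 7, against 0.384% of all entries. HLA-C had no match to them. CCAAT was present in 5 of 7 genes and 34.6% of entries, and TGACG in 4 of 7 genes and 24.6% of entries, so these short motifs are common everywhere. HLA-B and HLA-C both have TGACG followed by ATTGG and by CCAAT on the way to the start. TAP1 has a second entry, which starts further into the gene and in which none of the 4 motifs was found. These are letter matches in a window, and binding was not measured.

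The untreated line was described first. Levels of different genes can be compared only per length, so the CPM of each gene was divided by the length in kb of its principal GENCODE transcript. On this scale of CPM per kb, the control means ran from B2M (1487) through HLA-B (398), CD74 (191), HLA-DRA (130), HLA-C (124), TAPBP (72.2), TAP2 (9.23) and TAP1 (8.53) to CIITA (1.98). After chaetocin the means were 1037 for B2M, 335 for HLA-B, 138 for CD74, 108 for HLA-C, 106 for HLA-DRA, 57.3 for TAPBP, 9.57 for TAP1, 7.16 for TAP2 and 1.37 for CIITA. HLA-DRA and HLA-C overlapped in their sample values in both groups and cannot be ordered, and CD74 and HLA-DRA overlapped after chaetocin. CD74 and HLA-C, neighbours in the chaetocin order, also overlapped there. TAP2 lay above TAP1 in both controls and below it in both chaetocin samples. Thus in untreated cells, for which the labels name no interferon, RNA of the class II gene HLA-DRA was at a level per kb near that of HLA-C, and CD74 lay above HLA-C in both controls. HLA-C is polymorphic, and 5.7% of its 50-base windows occur in another gene, against 0 for HLA-DRA and CD74. How many HLA-C reads were lost or gained in mapping was not tested. CIITA was lowest with its principal transcript of 16059 bases and also with a shorter one of 4657 bases, which gave 6.84 CPM per kb in the controls and 4.72 after chaetocin.

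**Figure D1:**
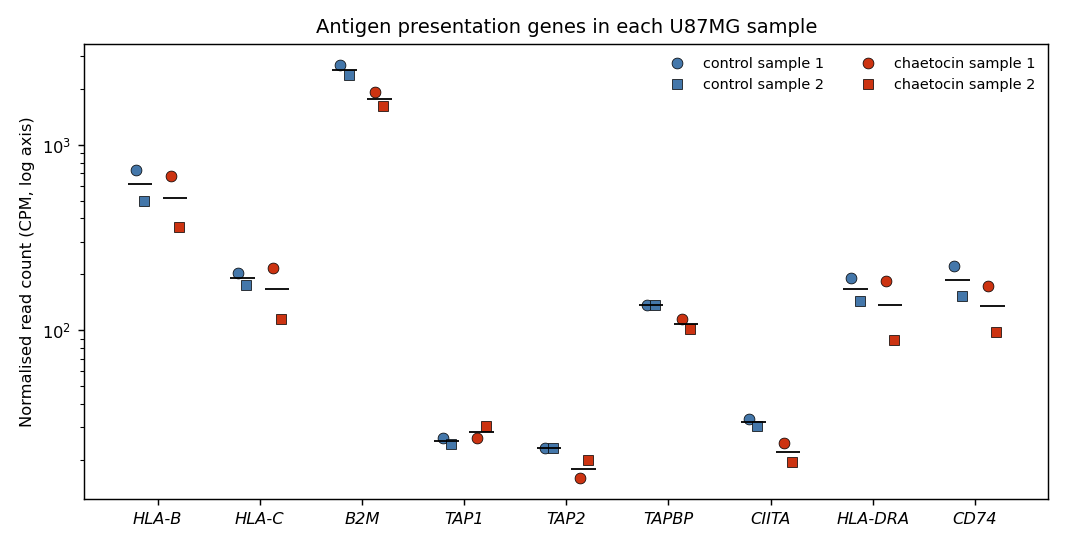
Normalised read count in CPM (log axis) of the 9 genes in each sample, with blue points for control, red points for chaetocin, circles for sample 1, squares for sample 2 and a black bar for the group mean. Chaetocin lies below control in both samples for B2M, TAP2, TAPBP and CIITA, and the groups overlap for HLA-B, HLA-C, HLA-DRA and CD74.

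Chaetocin was then compared with control, to ask whether it moved the display machinery of these cells. None of the 9 genes was called in either direction by edgeR's quasi-likelihood test at an adjusted p under 0.05, where 1.11% of the 16416 genes tested were called higher and 0.743% lower. DESeq2's Wald test also called 0 of the 9, against 2.35% of genes higher and 2.93% lower. At an unadjusted p under 0.05, 3 of the 9 passed in edgeR, namely B2M, TAPBP and CIITA, where 20.3% of all genes tested did. The log2 fold change (chaetocin minus control) was below 0 for 8 of the 9 genes and above 0 for TAP1, with a median of -0.33 over the members and 0.01 over all genes tested. Both chaetocin samples lay below both controls for 4 members, where 26.0% of all genes tested did, and above both controls for 1 member, where 26.8% did.

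The class I light chain B2M (ENSG00000166710, GENCODE v29 on GRCh38, chromosome 15, 44711487-44718877, plus strand) stabilizes every class I heavy chain at the surface. It had 2700 and 2370 CPM in control samples 1 and 2 and 1917 and 1618 CPM in chaetocin samples 1 and 2. The groups did not overlap. The log2 fold change was -0.52 (SE 0.21, 95% interval -0.99 to -0.05), with an edgeR adjusted p of 0.209. B2M rests on 41712 reads or more in each sample, and none of its 50-base windows occurs in the transcripts of another gene, so counting error and shared reads weigh little on it.

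HLA-B (ENSG00000234745, chromosome 6, 31269491-31357188, minus strand) and HLA-C (ENSG00000204525, chromosome 6, 31268749-31272130, minus strand) are the polymorphic heavy chains that hold the peptide. HLA-B had 732 and 499.6 CPM in the controls and 679 and 358 CPM after chaetocin. HLA-C had 204 and 176 CPM in the controls and 217 and 114 CPM after chaetocin. In both genes chaetocin sample 1 was as high as a control and chaetocin sample 2 was the lowest of the 4. The log2 fold changes were -0.25 for HLA-B (SE 0.31, 95% interval -0.96 to 0.47, edgeR adjusted p = 0.707) and -0.20 for HLA-C (SE 0.27, 95% interval -0.83 to 0.43, edgeR adjusted p = 0.731). Both intervals include a fall and a rise, so no change was detectable at this spread. In GENCODE v29, which may not be the annotation used for counting, the 2 gene models overlap by 2640 bases on the same strand. There 2.48% of the 50-base windows of HLA-B also occur in HLA-C, and 17.8% occur in some other gene, so the split of reads among heavy chains is uncertain. The ratio of HLA-B to HLA-C reads was 3.58 and 2.84 in the controls and 3.13 and 3.13 after chaetocin.

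Supply of light chain relative to these 2 heavy chains was compared within each sample as the ratio of B2M reads to HLA-B plus HLA-C reads. It was 2.89 and 3.51 in the controls and 2.14 and 3.43 after chaetocin. The ranges overlapped, and sample 1 had the lower ratio in both groups.

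TAP1 (ENSG00000168394, chromosome 6, 32845209-32853978, minus strand) was the single member on the upper side. It had 26.14 and 24.4 CPM in the controls and 26.15 and 30.5 CPM after chaetocin. Chaetocin sample 1 and control sample 1 were practically equal, so the groups were barely apart. Its log2 fold change was 0.17 (SE 0.16, 95% interval -0.21 to 0.54, edgeR adjusted p = 0.612). Its gene model is overlapped by that of PSMB9, an immunoproteasome subunit, on the opposite strand over 8770 bases, introns included. Of the 50-base windows of TAP1, 9.78% also occur in another gene, on either strand. Whether the counting used strand is not given in the sources used here. Without strand, reads from stretches that the pair shares could not be told apart, and the size of this part was not tested.

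The partner subunit TAP2 (ENSG00000204267, chromosome 6, 32821833-32838780, minus strand) lay on the other side. It had 23.1 and 23.0 CPM in the controls and 15.9 and 19.9 CPM after chaetocin. Both chaetocin samples were below both controls, and the log2 fold change was -0.36 (SE 0.18, 95% interval -0.77 to 0.05, edgeR adjusted p = 0.303). Of the 50-base windows of TAP2, 31.3% also occur in another gene, and the gene model ENSG00000250264, which covers the whole of TAP2 on the same strand, had 0 reads in all samples. The transporter needs both subunits, and the ratio of TAP1 to TAP2 reads within a sample was 1.13 and 1.06 in the controls and 1.65 and 1.54 after chaetocin. These 4 ratios did not overlap between the groups. With 2 samples against 2 an exact two-sided permutation test cannot give a p under 0.333, and the ratio was chosen after the values were seen, so it is given as a description.

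Tapasin, TAPBP (ENSG00000231925, chromosome 6, 33299694-33314387, minus strand), keeps the empty class I molecule beside the transporter and edits its peptide. It had 137 and 136 CPM in the controls and 114 and 102 CPM after chaetocin. The controls were nearly equal and both chaetocin samples lay below them. The log2 fold change was -0.33 (SE 0.14, 95% interval -0.66 to -0.01, edgeR adjusted p = 0.239).

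CIITA (ENSG00000179583, chromosome 16, 10866222-10943021, plus strand) does not bind DNA itself but is recruited by RFX, NF-Y and CREB at class II promoters. It had 33.2 and 30.5 CPM in the controls and 24.5 and 19.4 CPM after chaetocin. The groups did not overlap, and CIITA had the smallest adjusted p of the 9 genes, with a log2 fold change of -0.54 (SE 0.18, 95% interval -0.94 to -0.13, edgeR adjusted p = 0.143). The far end of its gene model is overlapped over 13570 bases on the opposite strand by DEXI, which itself had between 4 and 6 reads in each sample, and 22.4% of the 50-base windows of CIITA also occur in another gene. Where the counting ignored strand, reads of DEXI in that stretch could not be told apart from reads of CIITA.

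HLA-DRA (ENSG00000204287, chromosome 6, 32439842-32445046, plus strand) is the largely invariant alpha chain of HLA-DR, and CD74 (ENSG00000019582, chromosome 5, 150401637-150412929, minus strand) escorts it to the endosome. HLA-DRA had 190 and 143 CPM in the controls and 183 and 88.8 CPM after chaetocin. CD74 had 221 and 153 CPM in the controls and 173 and 97.5 CPM after chaetocin. In both genes chaetocin sample 1 lay between the controls and chaetocin sample 2 below all. The log2 fold changes were -0.29 for HLA-DRA (SE 0.32, 95% interval -1.03 to 0.44, edgeR adjusted p = 0.652) and -0.47 for CD74 (SE 0.28, 95% interval -1.12 to 0.17, edgeR adjusted p = 0.385). The ratio of CD74 to HLA-DRA reads was 1.16 and 1.07 in the controls and 0.94 and 1.10 after chaetocin, and these ranges overlapped.

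**Figure D2:**
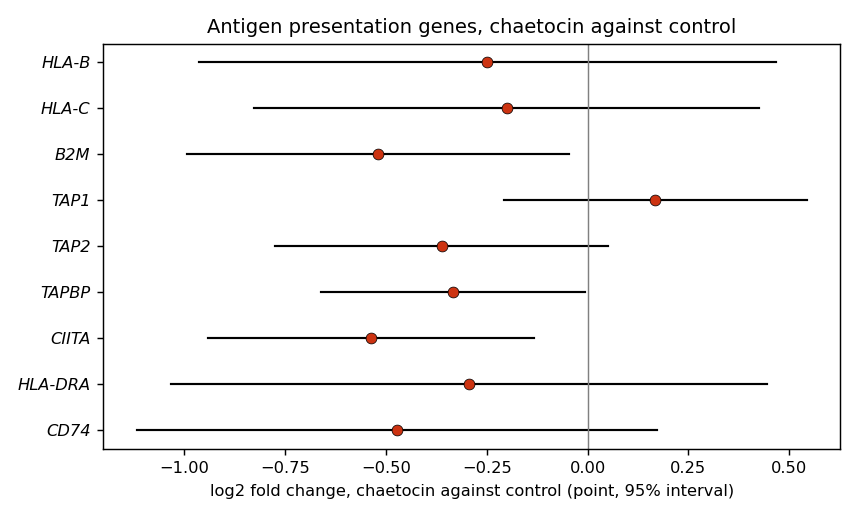
Log2 fold change of each gene, chaetocin against control, from edgeR's quasi-likelihood fit, with the point for the estimate and the line for its 95% interval. The intervals of B2M, TAPBP and CIITA end below 0 before adjustment over all genes, and the intervals of the other 6 include 0.

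The spread between samples of one group was itself patterned. Sample 1 was higher than sample 2 in both groups for 7 of the 9 members, all but TAP1 and TAP2, where 27.8% of all genes tested showed this order. This order was examined after the values were seen. Between the chaetocin samples the difference in log2(CPM + 0.5) was 1.04 for HLA-DRA, 0.92 for HLA-B, 0.92 for HLA-C and 0.82 for CD74, and between the controls it was 0.41, 0.55, 0.21 and 0.53 for the same genes. For these 4 genes the difference between the chaetocin samples was larger than the difference between the group means. Over all genes tested, the median absolute difference was 0.158 between the controls and 0.257 between the chaetocin samples, and over the members it was 0.189 and 0.33. Across all genes tested, the differences between samples 1 and 2 correlated between the groups with r = 0.191, which is over genes of the same 4 libraries and not over independent replicates.

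**Figure D3:**
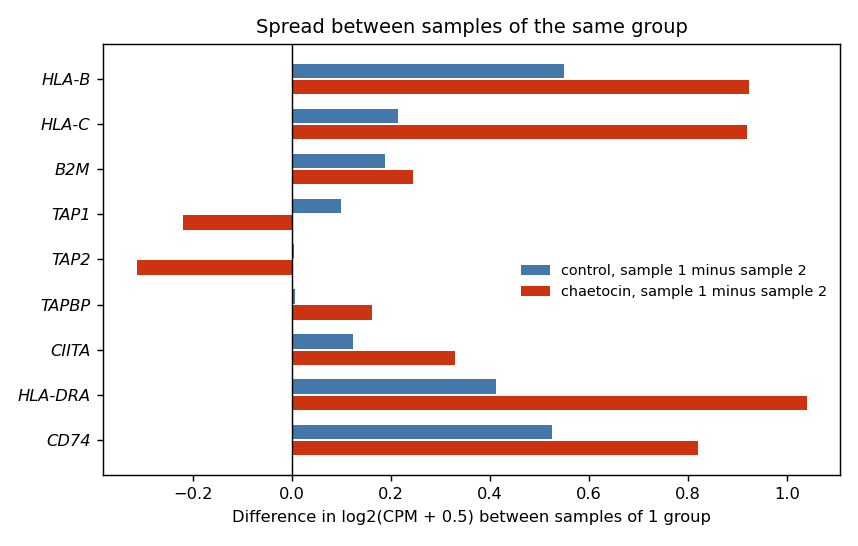
Difference in log2(CPM + 0.5) between sample 1 and sample 2 of the same group, with blue bars for control and red bars for chaetocin. The bars reach 1.04 for HLA-DRA in the chaetocin group, and those of TAP1 and TAP2 point the other way in that group.

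The call on the members therefore depended on which chaetocin sample was kept. Without chaetocin sample 1, 7 of the 9 genes were called lower, all but TAP1 and TAP2, in a fit in which 9.48% of genes were called lower. The log2 fold changes were then -0.94 for CD74, -0.91 for HLA-DRA, -0.78 for HLA-B, -0.73 for HLA-C, -0.71 for CIITA, -0.64 for B2M and -0.42 for TAPBP, with edgeR adjusted p between 0.00318 for HLA-C and 0.0464 for HLA-B. Without chaetocin sample 2, 0 of the 9 were called lower, in a fit in which 5.59% of genes were. HLA-B, HLA-C and HLA-DRA then had log2 fold changes above 0, of 0.13, 0.18 and 0.13, and B2M, TAP2, TAPBP, CIITA and CD74 stayed below 0. The log2 fold change of TAP1 was 0.28 without chaetocin sample 1 and 0.04 without chaetocin sample 2, and that of TAP2 was -0.21 and -0.54. Without control sample 1, HLA-B had a log2 fold change of 0.04. In such fits the lone sample is assumed to vary like the other group.

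The wider pathway was read from lists made by function. Named are up to 3 genes of highest mean CPM in each list and the called genes, while MICB, UGGT1, PSMB8, PSMB9, PSMB10, PSME2, IRF1, NFYB, HLA-DRB1, LGMN, SOCS3 and IFNGR1 were picked after their values were seen. As for the members, calls in the lists moved with the chaetocin sample kept, in fits in which 7.55% of genes were called higher without chaetocin sample 1 and 4.23% without chaetocin sample 2, beside the shares called lower given above. Other class I and class I-like molecules had 14 of 20 genes tested and 0 called, with 10 below 0 and a median log2 fold change of -0.22. HLA-E, which presents leader peptides to natural killer cells, had 84.1 and 73.6 CPM in the controls and 65.3 and 60.4 CPM after chaetocin (log2 fold change -0.33, edgeR adjusted p = 0.26). MICA and MICB, stress ligands of the receptor NKG2D, lay on the other side. MICB had 6.97 and 7.52 CPM in the controls and 13.0 and 11.4 CPM after chaetocin (log2 fold change 0.75, edgeR adjusted p = 0.0978), and MICA had 26.1 and 35.9 against 35.9 and 42.8 CPM (log2 fold change 0.35, edgeR adjusted p = 0.359). PROCR, a class I-like receptor of protein C, had a log2 fold change of -0.47 (edgeR adjusted p = 0.118). Without chaetocin sample 1, 1 gene of the list was called higher and 4 lower, and without chaetocin sample 2, 1 higher and 1 lower.

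Peptide loading and trimming had 12 of 12 genes tested and 0 called by edgeR, with 10 below 0, both chaetocin samples below both controls for 9, where 26.0% of all genes tested did, and a median log2 fold change of -0.29. The 3 of highest mean CPM were CALR and CANX, lectin chaperones of newly made class I, and SEC61A1, a subunit of the translocon. Their log2 fold changes were -0.44, -0.30 and -0.60, with edgeR adjusted p of 0.241, 0.401 and 0.123. UGGT1, the folding sensor that returns glycoproteins to those chaperones, had the smallest adjusted p of that list, with 325 and 349 CPM in the controls and 218 and 227 CPM after chaetocin (log2 fold change -0.60, edgeR adjusted p = 0.0828). The groups were apart for UGGT1, and its call depended on the method. DESeq2 called 2 genes of the list lower, UGGT1 (adjusted p = 0.0145) and SEC61A1 (adjusted p = 0.0143), and edgeR without a filter on low counts called the same 2 (adjusted p = 0.0159 and 0.0213), in a fit in which 2.48% of genes were called higher and 2.39% lower. In the fit without chaetocin sample 1, 1 gene of the list was called higher and 5 lower, CALR (-0.52), SEC61A1 (-0.66) and UGGT1 (-0.57) among the latter. Without chaetocin sample 2, UGGT1 (-0.63) alone was called lower.

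The immunoproteasome list with PA28 and the constitutive subunits had 9 of 9 genes tested and 0 called, with 7 below 0 and a median of -0.22. PSMB8 and PSMB9, the interferon-inducible subunits encoded beside TAP1 and TAP2, had log2 fold changes of -0.45 (edgeR adjusted p = 0.19) and -0.32 (edgeR adjusted p = 0.397). PSMB10, the third such subunit, and PSME2, a subunit of the proteasome activator PA28, lay on the other side, with both chaetocin samples above both controls and log2 fold changes of 0.27 (edgeR adjusted p = 0.464) and 0.52 (edgeR adjusted p = 0.202). The higher-count PSME3, PSMB7 and PSMB6 had log2 fold changes of -0.01, -0.22 and -0.38, with edgeR adjusted p of 0.985, 0.483 and 0.338. With chaetocin sample 1 left out, 3 genes of the list were called lower, among them PSMB6 (-0.72) and PSMB8 (-0.60), and without chaetocin sample 2, PSME2 (0.76) was called higher.

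Among factors that act at these promoters, 13 of 13 were tested and 0 called, with 8 below 0 and a median of -0.08. NLRC5, the class I counterpart of CIITA, had 61.8 and 63.7 CPM in the controls and 53.8 and 53.1 CPM after chaetocin (log2 fold change -0.23, edgeR adjusted p = 0.397). IRF1, which binds the interferon-stimulated response element, had 38.0 and 25.6 CPM in the controls and 51.3 and 52.6 CPM after chaetocin (log2 fold change 0.71, edgeR adjusted p = 0.106). NFYB, a subunit of NF-Y, had 42.9 and 41.9 CPM in the controls and 69.8 and 57.5 CPM after chaetocin (log2 fold change 0.59, edgeR adjusted p = 0.0926). Both chaetocin samples lay above both controls for IRF1 and NFYB. Neither passed the threshold in the main fit, and both did without the filter on low counts (edgeR adjusted p = 0.00606 for IRF1 and 0.0352 for NFYB). The higher-count RFX5 and the acetyltransferase EP300 had log2 fold changes of 0.01 and -0.29, with edgeR adjusted p of 0.989 and 0.527. Without chaetocin sample 1, 2 genes of the list were called higher, NFYB (0.44) among them, and 2 lower. Without chaetocin sample 2, NFYB (0.71) was called higher, and 2 genes, EP300 (-0.72) among them, were called lower.

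Other class II genes and lysosomal enzymes had 16 of 20 genes tested and 0 called, with 14 below 0 and a median of -0.24. Log2 fold changes ran from -0.79 to 0.59. Both chaetocin samples lay below both controls for 5 genes, where 26.0% of all genes tested did, and above both for 1, where 26.8% did. HLA-DRB1, the beta chain that pairs with HLA-DRA, had 62.5 and 49.5 CPM in the controls and 66.0 and 36.3 CPM after chaetocin (log2 fold change -0.13, edgeR adjusted p = 0.826). Chaetocin sample 2 was again the lowest of the 4, as for HLA-DRA, and the similar gene HLA-DRB5 makes the assignment of these reads uncertain. The lysosomal proteases CTSB, CTSD and CTSL had log2 fold changes of -0.25, -0.003 and -0.32 (edgeR adjusted p of 0.469, 0.994 and 0.37), and the asparagine endopeptidase LGMN had 0.59 (edgeR adjusted p = 0.0978). LGMN was called higher by edgeR without a filter on low counts (adjusted p = 0.0341). LGMN (0.72) was also called higher without chaetocin sample 1, as 4 genes were called lower, HLA-DRB1 (-0.62) among them.

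The interferon-gamma receptor and signalling list had 11 of 12 genes tested and 0 called, with 7 below 0 and a median of -0.07. The higher-count PTPN11, a phosphatase, and JAK1, a receptor-bound kinase, had log2 fold changes of -0.20 and -0.30, with edgeR adjusted p of 0.532 and 0.401. SOCS3, a feedback inhibitor of cytokine signalling, had -0.55 (edgeR adjusted p = 0.107), and IFNGR1, the ligand-binding receptor chain, had -0.48 (edgeR adjusted p = 0.169). Without a filter on low counts, SOCS3 was called lower (edgeR adjusted p = 0.0298). Without chaetocin sample 1, SOCS3 (-0.67) was called lower, and without chaetocin sample 2, JAK1 (-0.50) was.

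Of the 9 genes, 6 lie in the major histocompatibility complex, which gives the neighbourhood as a comparison. Between HLA-F and TAPBP (chromosome 6, 29722775-33314387), 122 of 289 genes were tested, 1 was called higher and 0 lower, with a median log2 fold change of -0.07. The called gene was HSPA1B, a stress-inducible heat shock protein whose near-identical neighbour HSPA1A makes its reads uncertain, with a mean of 43.0 CPM in the controls and 154 CPM after chaetocin (log2 fold change 1.84, edgeR adjusted p = 0.0279). Among the glioma line markers, 8 of 11 genes were tested and all 8 were below 0, with CHI3L1, a secreted chitinase-like protein, the single one called lower by edgeR (121 and 160 against 58.3 and 57.5 CPM, log2 fold change -1.28, edgeR adjusted p = 0.0266), and their median of -0.78 was further from 0 than that of the members. VIM, CD44 and EGFR in that list had log2 fold changes of -0.80, -1.20 and -0.75, with edgeR adjusted p of 0.134, 0.0699 and 0.0514. DESeq2 called these 3 lower as well (adjusted p = 0.00966, 8.35e-05 and 0.00175), as did edgeR without a filter on low counts. CD44 was called lower without control sample 1 (-1.17), chaetocin sample 1 (-1.68) or chaetocin sample 2 (-0.85), EGFR without either chaetocin sample (-0.67 and -0.83), and VIM without chaetocin sample 1 (-1.14).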

How the data were processed

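The values deposited by the authors are raw counts of reads per gene, in 1 table for each sample, with no normalization. Their processing notes name cutadapt, TopHat2, TopHat, SAMtools and the build GRCh37, and the counting tool, the gene annotation and the use of strand are not given in the sources used here. Reads were 50 bases long and single-end, from polyadenylated RNA amplified with PCR, so floors cover counting error only. Groups and sample numbers were taken from the labels. Genes were tested with edgeR 4.0.16 in R 4.3.3 (filterByExpr with a minimum count of 10, TMM, robust quasi-likelihood fit, Benjamini-Hochberg adjustment over 16416 genes, threshold 0.05), and, as an alternative, with DESeq2 1.42.0, a later version of the tool that the study names. The test was tested on simulated data. Symbols, positions and transcript lengths came from GENCODE v29 (52338 identifiers matched) and promoter sequences from RefSeq. The reads were counted on GRCh37, so the gene models, overlaps and lengths used in counting may differ from these. Named genes were the 9 members, and in each list the called genes and the 3 most abundant others. A result that this rule would name is not reported here. MICB, UGGT1, PSMB8, PSMB9, PSMB10, PSME2, IRF1, NFYB, HLA-DRB1, LGMN, SOCS3 and IFNGR1 were added after their values were seen. The members and lists were chosen with earlier results of these data known. Replicates of a group differed by more than counting noise (chi-square per degree of freedom 21.7 for control and 60.8 for chaetocin), so no library was counted as a duplicate.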

Additional observations from a re-analysis of the deposited data

How the results depend on the processing

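With all 4 samples kept, 8 alternatives were run: other size factors, upper-quartile scaling, no filter, a stricter filter, the replicate block, DESeq2, protein-coding genes and thinning. No member changed sign under them, and the members' calls changed with the replicate block alone, where labels share only a number. With it, 2 members were called lower, CIITA (log2 fold change -0.54, edgeR adjusted p = 0.0278) and CD74 (-0.51, edgeR adjusted p = 0.0273), in a fit in which 6.41% of genes were called lower and 6.31% higher. Among the other genes named here, the replicate block also called PROCR, SEC61A1, UGGT1, SOCS3, VIM, CD44 and EGFR lower and MICB, PSME2, IRF1, NFYB and LGMN higher. Genes called higher and lower numbered 1036 and 1053 with the replicate block, 787 and 759 without a filter, 114 and 80 where every sample needed 10 counts, 385 and 481 by DESeq2, and 113 and 67 after thinning to the smallest library, against 182 and 122.

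Leaving out each sample in turn gave 215 to 1332 genes higher, 97 to 1673 lower and 0 to 7 members lower. Log2 fold changes ranged from -0.78 to 0.13 for HLA-B, -0.73 to 0.18 for HLA-C, -0.64 to -0.41 for B2M, 0.04 to 0.28 for TAP1, -0.54 to -0.21 for TAP2, -0.42 to -0.26 for TAPBP, -0.71 to -0.38 for CIITA, -0.91 to 0.13 for HLA-DRA, and -0.94 to -0.13 for CD74. Among other genes whose sign changed, they ranged from -0.13 to 0.098 for PSME3, -0.72 to 0.042 for EP300, -0.20 to 0.18 for RFX5, -0.19 to 0.18 for CTSD, -0.69 to 0.41 for CSF1R, -0.59 to 0.045 for ITGAX, and -0.62 to 0.23 for HLA-DRB1. The sign also changed under upper-quartile scaling for PSME3 (0.069), CTSD (0.075) and CSF1R (0.026), with at least 10 counts for PSME3 (0.014) and CTSD (0.019), with protein-coding genes for PSME3 (0.021) and CTSD (0.025), after thinning for PSME3 (0.012), CTSD (0.014) and RFX5 (-0.0026), with the replicate block for CTSD (0.0048) and RFX5 (-0.0052), and for RFX5 without a filter (-0.013) and by DESeq2 (-0.011). The cause was not tested.

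The HLA genes and CD74 among the members had 3155 reads or more in every sample, and each group has 2 samples.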
